A study of Mus musculus with 16 samples.

Results

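The interleukin-6 family signals through gp130, a shared receptor chain encoded by Il6st. Its genes were followed here in intervertebral discs of mice with and without disc injury. They were chosen by gene name, as 5 ligands (Il6, Il11, Lif, Clcf1 and Osm) and 5 receptor chains (Il6st, Il6ra, Il11ra1, Lifr and Osmr). Each matched 1 of the 49315 genes of the table, and all 10 passed the filter for testing, a level of 1 TPM or more in 3 libraries or more, as did 24188 genes in all. Levels are in TPM, a measure of transcripts corrected for gene length and for sequencing depth, which lets levels be compared between genes.

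The series profiled coccygeal (tail) discs of 16 mice by bulk RNA sequencing, with the tissue of 4 discs of a mouse pooled into 1 library. Mice were wild type or carried the Adam8EQ allele, and their discs were left intact or were injured. The wild-type groups held 3 intact and 4 injured mice, and the mutant groups 4 intact and 5 injured mice. Adam8 is the gene of a metalloprotease that sits in the cell membrane, and the series title names DBA, an inbred strain, as the comparison. The labels say no more of the EQ allele, and age, the way of injury and the time after it are not given in the sources used here.

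Ligands of this family bind a specific receptor chain, which then joins gp130 and passes the signal to JAK kinases and to the transcription factor STAT3. Il6ra binds interleukin 6 and Il11ra1 binds interleukin 11, in each case with gp130 as the signalling chain. Lifr pairs with gp130 for leukaemia inhibitory factor (Lif), and Osmr pairs with gp130 for oncostatin M (Osm). For cardiotrophin-like cytokine (Clcf1), Lifr acts beside gp130 and Cntfr, a chain outside the set followed here. In skeletal tissues the family is known for acute-phase and inflammatory signalling and for effects on cartilage and bone turnover.

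The depth of a library, estimated from the steps between low TPM values, was 10196634 to 24837278 reads. Adam8 itself lay at 0.956 to 2.97 TPM in the 7 intact libraries and at 3.52 to 264 TPM in the 9 injured libraries. Since the labels describe no deletion, that level does not check the genotype labels. Cartilage and annulus markers (Acan, Col2a1, Sox9, Comp, Matn3 and Cilp) summed to 3920 to 18099 TPM, so the labelled tissue was present in every library. Leukocyte markers (Ptprc, Tyrobp and Laptm5) summed to 4.31 to 25.1 TPM in intact discs, to 22.8, 50.9, 441 and 237 TPM in injured wild-type mice 1 to 4, and to 81.5 to 723 TPM in injured mutants. By these markers injured wild-type mice 1 and 2 stood apart from mice 3 and 4. The library names of mice 1 and 2 hold consecutive numbers, as do those of mice 3 and 4, with a gap between the pairs. What these numbers stand for is not stated, so the division of these mice cannot be told apart from them. Notochordal nucleus pulposus markers (T, Krt8, Krt18, Krt19, Foxa1 and Cdh2) went the other way from leukocyte markers in mutants. They summed to 2585 to 5045 TPM in intact, 1123 to 3965 TPM in injured wild-type and 46.5 to 2492 TPM in injured mutant libraries. With injury in mutants 4 of 6 of these fell, as did 3 of 4 outer annulus and 2 of 6 cartilage markers. The share of all tested genes that fell was 17.7%. The sum of the outer annulus markers did not follow these falls. It was 823 to 1168 TPM in intact and 1239 to 6113 TPM in injured wild-type libraries, and 870 to 1490 and 680 to 2384 TPM in mutants. Injured wild-type mouse 3 had the highest such sum, 6113 TPM, and the lowest cartilage sum of its group, 5292 TPM. In bulk tissue, fewer cells of a type and less RNA per cell cannot be told apart. The part that leukocytes or this shift of tissue markers took in the results below was not tested.

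The sequences just before the start sites of 3 ligands are shown first, because Il6, Il11 and Lif each rose in mutants. They come from RefSeq on GRCm38.p6, which had entries for 8 of the 10 genes and none for Clcf1 and Osm. Capitals mark matches to motifs of inflammatory transcription factors, and bases in annotated exons were left out. The windows are chr5:30012864-30013113 on the plus strand for Il6, chr7:4778142-4778391 on the minus strand for the second annotated start of Il11, and chr11:4257318-4257556 on the plus strand for Lif.
Il6: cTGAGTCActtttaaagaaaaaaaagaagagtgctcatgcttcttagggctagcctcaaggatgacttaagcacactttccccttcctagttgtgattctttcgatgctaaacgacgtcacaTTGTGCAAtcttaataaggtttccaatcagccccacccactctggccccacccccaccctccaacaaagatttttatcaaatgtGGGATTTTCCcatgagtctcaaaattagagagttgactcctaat
Il11: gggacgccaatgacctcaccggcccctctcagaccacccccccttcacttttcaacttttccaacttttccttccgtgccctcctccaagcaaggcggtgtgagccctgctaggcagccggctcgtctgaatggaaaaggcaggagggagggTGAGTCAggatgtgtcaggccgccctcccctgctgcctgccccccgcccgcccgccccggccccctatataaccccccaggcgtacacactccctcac
Lif: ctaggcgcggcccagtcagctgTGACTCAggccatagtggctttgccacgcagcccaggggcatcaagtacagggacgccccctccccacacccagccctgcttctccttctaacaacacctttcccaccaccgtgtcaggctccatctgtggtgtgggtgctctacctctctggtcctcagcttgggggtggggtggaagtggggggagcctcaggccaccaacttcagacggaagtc
Both strands were searched in all 250 bases before each of the 11 listed start sites of the family, including bases that lie in exons and are not printed. The AP-1 motif TGANTCA matched before these 3 starts, as TGAGTCA at 249 bases before the start in Il6, as TGAGTCA at 98 bases in Il11 and as TGACTCA at 228 bases in Lif. It was present in 6.75% of all 32851 RefSeq windows of that length. The NF-kappaB motif, GGG and TTTCC parted by any 2 bases, present in 1.41% of windows, matched, among these 11 windows, only before Il6, as GGGATTTTCC at 44 bases. The C/EBP motif TTGCNNAA, present in 9.56% of windows, likewise matched only before Il6, as TTGTGCAA at 128 bases, where it reads on the other strand. The STAT motif TTCNNNGAA, present in 7.02% of windows, matched in none of the 11. The other start of Il11 and the 7 windows of receptor chains held none of the 4 motifs. These matches describe letters in the reference genome of another strain and are not measured binding sites.

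In intact discs the receptor chains stood far above the ligands, with Clcf1 as the exception. Il6st was the highest of the 10 genes in both genotypes, with a median of 211 TPM in wild-type and 231 TPM in mutant mice, followed by Lifr at 129 TPM in each. The ranges of these 2 chains did not overlap in the wild type and overlapped in mutants. Osmr, Il11ra1, Il6ra and the ligand Clcf1 formed a middle tier with medians between 20.3 and 39.1 TPM, and neighbours within that tier overlapped between mice. Il11 at medians of 2.31 and 1.63 TPM and Lif at 1.34 and 0.971 TPM lay below every receptor chain. Il6 did not pass 0.833 TPM and Osm did not pass 0.553 TPM in any intact library, which corresponds to at most 6 and 4 reads. Clcf1 alone made up 81.4% to 90.2% of the summed ligand TPM of the 7 intact libraries.

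In mutants every ligand rose with injury, and the receptor chains moved in both directions. In the fit across all tested genes (limma, Benjamini-Hochberg adjusted p under 0.05), 9 of the 10 genes changed with injury in mutants, against a background of 30.8% of all tested genes. All 5 ligands rose, where 13.1% of tested genes rose. Il6 and Osm stayed under 1 TPM in every intact library, so they passed the filter only through injured libraries. A rise was thus favoured in advance for Il6 and Osm, and setting their calls beside these shares adds no support. Of the receptor chains, Osmr and Il6ra rose, and Il11ra1 and Lifr fell, where 17.7% of tested genes fell. The median change was 3.07 for ligands and -0.18 for receptor chains on the log2(TPM + 1) scale, against -0.08 for all tested genes. In the wild type 0 of 10 passed the same limma threshold, as did 0.116% of tested genes, while 5 of 10 had an unadjusted p under 0.05, as did 17.2% of tested genes. A voom fit on estimated reads likewise called 0 of 10 there. The wild-type medians were 1.47 for ligands, 0.01 for receptor chains and 0.01 for all tested genes.

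**Figure D1:**
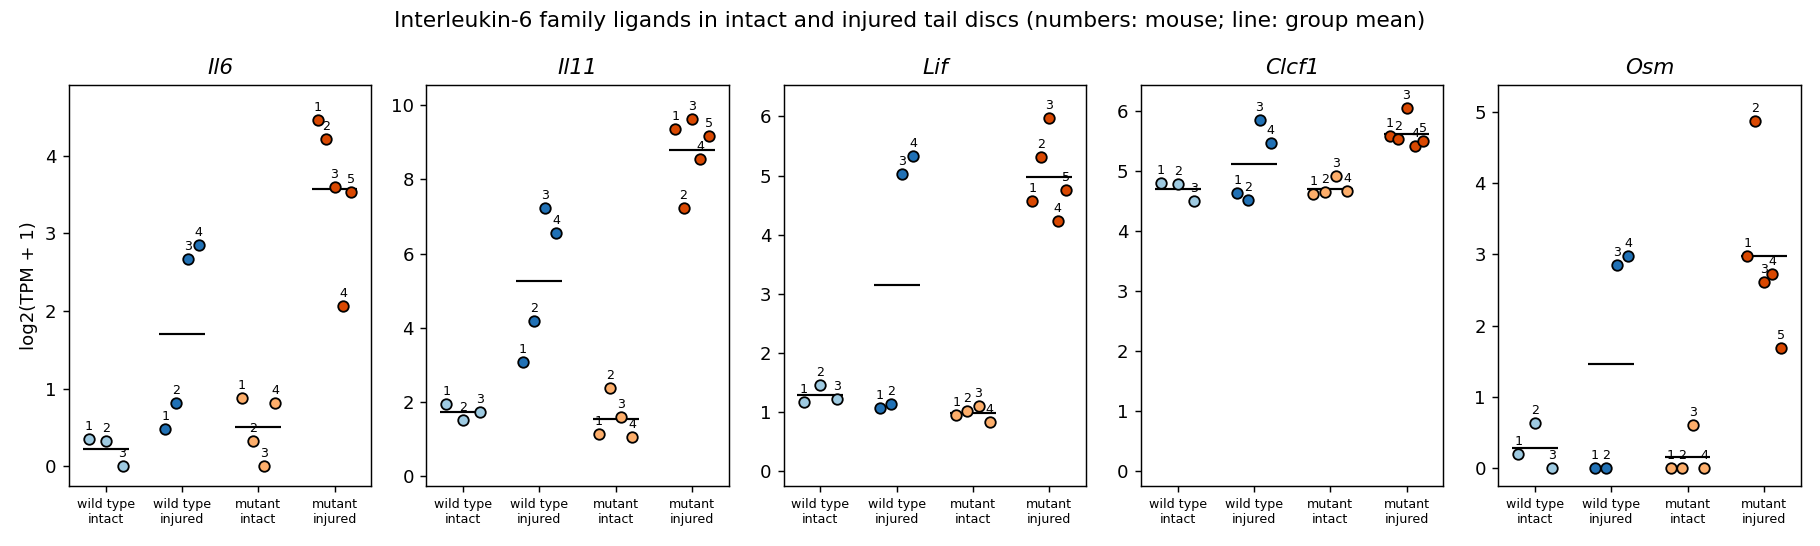
Level of each ligand as log2(TPM + 1) in each mouse, with mice numbered as in the labels and a line at the group mean (3 and 4 wild-type, 4 and 5 mutant mice). All 5 injured mutants lie above all 4 intact mutants in every panel, while injured wild-type mice 1 and 2 lie near the intact mice for Lif, Clcf1 and Osm.

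Il11, a cytokine tied to stromal and fibrotic responses, was the ligand with the largest change. It lies on GRCm38 chromosome 7, 4772373 to 4782859, minus strand (ENSMUSG00000004371, protein coding). In intact mutants 1 to 4 it was at 1.21, 4.22, 2.06 and 1.08 TPM, and in injured mutants 1 to 5 at 657, 149, 780, 370 and 577 TPM. The groups did not overlap, and the ratio of their means was 237. The change of 7.23 ± 0.71 (moderated SE, limma adjusted p 0.0001172) passed the threshold under all 29 alternative settings. In the wild type Il11 was at 2.87, 1.87 and 2.31 TPM in intact mice 1 to 3 and at 7.48, 17.3, 149 and 92.8 TPM in injured mice 1 to 4. All 4 injured mice thus lay above all intact mice, with mice 3 and 4 well above mice 1 and 2. The wild-type change was 3.53 ± 0.80 (limma adjusted p 0.1027), and without injured wild-type mouse 1 it was 4.26 with an adjusted p of 0.0181. That was the only 1 of 27 alternatives in which Il11 passed, and calls over all tested genes then went from 28 to 452.

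Il6, the founding member and a driver of acute-phase responses, rose from a level near the limit of counting. Its locus is chromosome 5, 30013114 to 30019981, plus strand (ENSMUSG00000025746). Intact mutants had 0.833, 0.259, 0 and 0.766 TPM, and injured mutants 20.9, 17.6, 11.1, 3.19 and 10.6 TPM. The lowest injured mutant, mouse 4, was still above the highest intact one. The change was 3.07 ± 0.53 (limma adjusted p 0.001302). Among mutant libraries whose names begin with M it was 2.66 with an adjusted p of 0.0755. Intact wild-type mice had 0.28, 0.259 and 0 TPM and injured ones 0.396, 0.762, 5.33 and 6.21 TPM, a change of 1.47 ± 0.60 (limma adjusted p 0.2472) with no overlap between groups. In injured wild-type mice 1 and 2 these levels stand for 3 and 5 reads, so they cannot be set apart from the intact level by counting.

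Lif, which signals through Lifr and gp130, split the injured wild-type mice into a low and a high pair. It lies on chromosome 11, 4257557 to 4272514, plus strand (ENSMUSG00000034394), 16530 bases after the end of Osm (chromosome 11, 4236420 to 4241026, ENSMUSG00000058755) with no annotated gene between them. Injured wild-type mice 1 and 2 had 1.1 and 1.19 TPM, below all 3 intact mice at 1.25, 1.73 and 1.34 TPM, whereas mice 3 and 4 had 31.6 and 39.1 TPM. Intact mutants had 0.93, 1.01, 1.15 and 0.783 TPM and injured mutants 22.8, 38.7, 61.5, 17.9 and 26 TPM, with no overlap. The change was 3.99 ± 0.76 in mutants (limma adjusted p 0.002131). Wild-type mice differed by 1.86 ± 0.86 (limma adjusted p 0.2892). Within mutant libraries named M or A8 alone it was 4.01 and 3.96, with adjusted p-values of 0.0904 and 0.0715.

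Osm, a product mainly of activated myeloid cells, followed the same division of mice. It was at 0 TPM in 3 of 4 intact mutants and 0.52 TPM in mouse 3, and at 6.91, 28.5, 5.12, 5.63 and 2.21 TPM in injured mutants. The change was 2.83 ± 0.68 (limma adjusted p 0.007151). With only the mutant libraries named M it was 2.04 with an adjusted p of 0.194. Intact wild-type mice had 0.149, 0.553 and 0 TPM. Injured wild-type mice 1 and 2 were listed at 0, and mice 3 and 4 had 6.23 and 6.89 TPM, a change of 1.18 ± 0.77 (limma adjusted p 0.4345). Osm was highest in injured mutant mouse 2, the library with the highest summed leukocyte (723 TPM), macrophage (1430 TPM) and neutrophil (928 TPM) markers. In injured wild-type mice 1 and 2 the neutrophil markers summed to 3.34 and 3.6 TPM, within the intact range of 1.99 to 6.92 TPM. Leukocyte markers summed to 22.8 and 50.9 TPM in these mice, against 4.31 to 25.1 TPM in intact discs. Macrophage markers summed to 135 and 152 TPM, against 98.8 to 140 TPM. In mouse 2 both thus lay above the intact range although Osm was listed at 0. In mutants 3 of 3 tested leukocyte, 4 of 5 macrophage and 3 of 5 neutrophil markers rose with injury, where 13.1% of all tested genes rose.

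Clcf1, the ligand that led in intact discs, had the smallest change of the ligands. It lies on chromosome 19, 4214238 to 4223490, plus strand (ENSMUSG00000040663), where 2 other annotated genes overlap it, so its level is uncertain to that extent. Intact mutants had 23.4, 24, 29.2 and 24.3 TPM and injured mutants 46.8, 45.4, 65.3, 41.8 and 44.4 TPM, without overlap. The change was 0.91 ± 0.23 (limma adjusted p 0.009214). Among mutant libraries named M or A8 alone it was 0.87 and 0.93, with adjusted p-values of 0.177 and 0.124. Intact wild-type mice had 27, 26.4 and 21.5 TPM, and injured wild-type mice 23.9, 21.8, 57 and 43.1 TPM. Mice 1 and 2 lay inside the intact range and mice 3 and 4 above it, giving 0.43 ± 0.26 (limma adjusted p 0.4053).

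**Figure D2:**
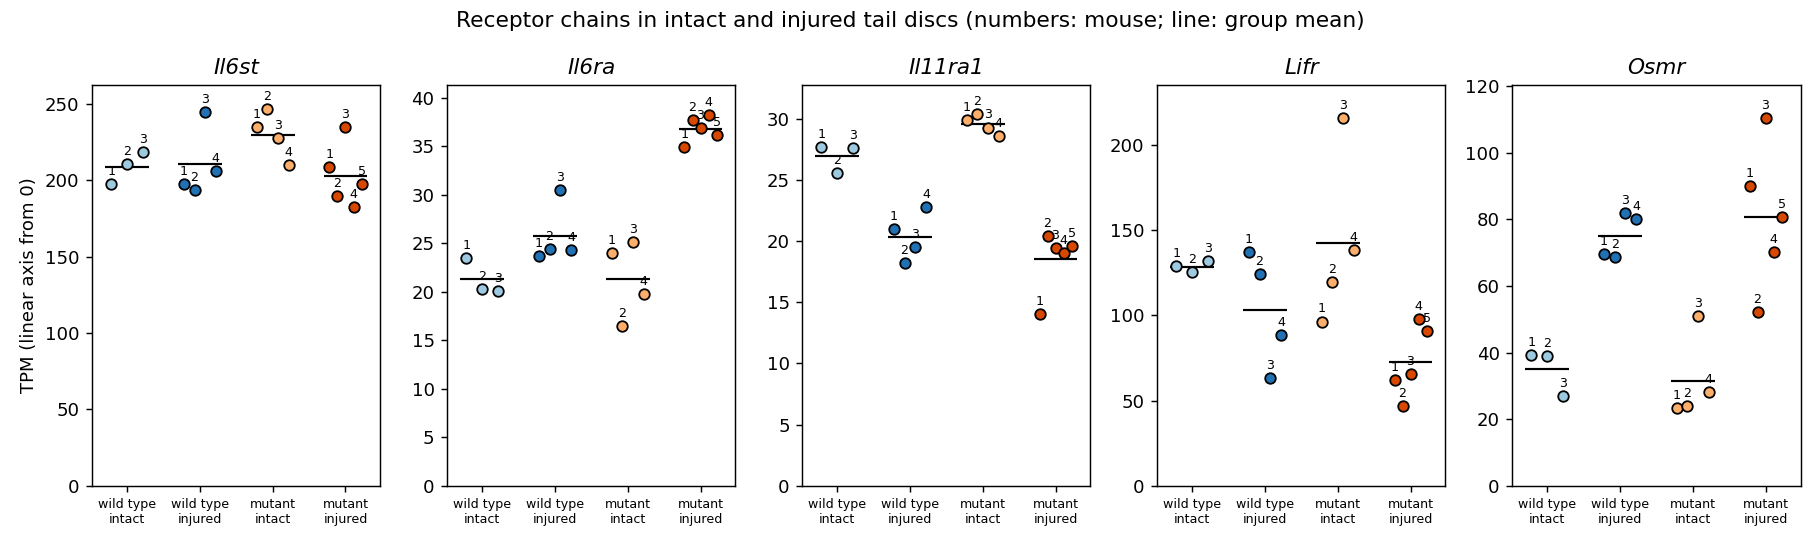
Level of each receptor chain in TPM on a linear axis from 0, in each mouse, with a line at the group mean. Il6st stays between 183 and 247 TPM in all 16 libraries, Osmr is higher and Il11ra1 lower in every injured mouse than in every intact mouse of its genotype.

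The shared chain Il6st, without which none of these ligands signals, moved little. It lies on chromosome 13, 112464070 to 112510086, plus strand (ENSMUSG00000021756). Its values were 198, 211 and 219 TPM in intact and 198, 194, 245 and 206 TPM in injured wild-type mice. Mutants had 235, 247, 227 and 210 TPM when intact and 209, 190, 235, 183 and 198 TPM when injured. The ranges overlapped in both genotypes. The change with injury was -0.18 ± 0.09 in mutants (limma adjusted p 0.1503). In the wild type it was 0.01 ± 0.11 (limma adjusted p 0.9841), and its sign turned with median-of-ratios scaling, to -0.0032.

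Osmr, a chain of the oncostatin M receptor that also serves interleukin 31, rose in mutants. Its locus is chromosome 15, 6813577 to 6874969, minus strand (ENSMUSG00000022146), and Lifr lies 215644 bases further on. Intact mutants had 23.4, 23.9, 51 and 28.1 TPM and injured mutants 90.1, 52.2, 110, 70.1 and 80.6 TPM. The highest intact mutant, mouse 3, lay just under the lowest injured one, mouse 2. The change was 1.36 ± 0.23 (limma adjusted p 0.001217) and was called under all 29 alternative settings. In the wild type, 39.2, 39.1 and 26.9 TPM in intact mice compared with 69.4, 68.8, 82 and 80.1 TPM in injured mice, 1.09 ± 0.26 (limma adjusted p 0.1133). Here injured mice 1 and 2 lay with mice 3 and 4, although Lif, Clcf1 and Osm did not differ from the intact range in mice 1 and 2 or lay under it.

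Lifr, a chain for Lif and Clcf1, moved the other way in mutants. It lies on chromosome 15, 7090614 to 7197489, plus strand (ENSMUSG00000054263). Intact mutants had 96.3, 119, 215 and 138 TPM and injured mutants 62.1, 47, 65.7, 98 and 90.8 TPM, which overlap by mouse 1 of the intact and mouse 4 of the injured group. The fall of 0.94 ± 0.26 on the log2 scale has a limma adjusted p of 0.01518. Without intact mutant mouse 3 the change was -0.72 with an adjusted p of 0.0503, and within libraries named M or A8 alone it was -1.04 and -0.98 with 0.0883 and 0.0636. Wild-type mice had 129, 125 and 132 TPM when intact and 137, 124, 63.1 and 88.3 TPM when injured, so that mice 3 and 4 lay well under the intact range (-0.38 ± 0.30, limma adjusted p 0.5239). The ratio of Osmr to Lifr, both counted per length, was 0.2 to 0.312 in the 7 intact libraries. It was 0.506, 0.554, 1.3 and 0.907 in injured wild-type mice 1 to 4, and 0.716 to 1.68 in injured mutants.

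Il6ra, the chain that captures interleukin 6, rose in mutants within a narrow range. It lies on chromosome 3, 89864059 to 89913196, minus strand (ENSMUSG00000027947), and overlaps 1 annotated gene on the other strand. Intact mutants had 24, 16.5, 25.1 and 19.8 TPM and the 5 injured mutants 35, 37.7, 36.9, 38.3 and 36.2 TPM. The change was 0.78 ± 0.12 (limma adjusted p 0.0007311) and was called under all 29 alternatives. Intact wild-type mice had 23.5, 20.3 and 20.1 TPM and injured ones 23.7, 24.5, 30.5 and 24.3 TPM. Those groups did not overlap either, but nearly touched at mouse 1 of each, for a difference of 0.26 ± 0.13 (limma adjusted p 0.3302).

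Il11ra1, the chain specific to interleukin 11, fell in mutants while its ligand rose. It lies on chromosome 4, 41699989 to 41769474, plus strand (ENSMUSG00000073889), with 6 annotated genes overlapping its span. The 3 entries named Il11ra2 were listed at 0 in every library, so reads shared between the copies may be missing and the level of Il11ra1 is uncertain. Intact mutants had 29.9, 30.4, 29.3 and 28.6 TPM and injured mutants 14.1, 20.4, 19.4, 19 and 19.6 TPM. The fall of 0.66 ± 0.11 (limma adjusted p 0.0009385) was called under all 29 alternatives. The wild type had 27.7, 25.6 and 27.6 TPM in intact and 21, 18.2, 19.5 and 22.7 TPM in injured mice, a difference of -0.39 ± 0.12 (limma adjusted p 0.1622) without overlap.

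**Figure D3:**
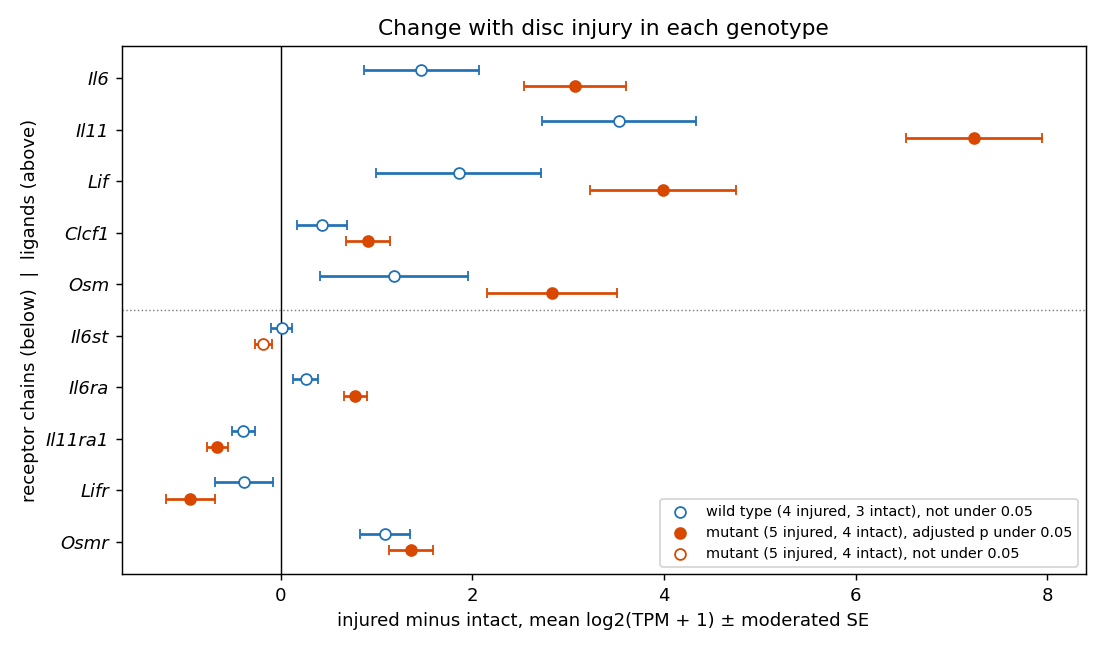
Change with injury of each gene as the difference of mean log2(TPM + 1) with its moderated standard error, in wild-type and mutant mice, where filled points have an adjusted p under 0.05. In mutants the 5 ligands lie to the right of 0, and the receptor chains lie on both sides of it.

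Over the family, the groups of intact and injured mice did not overlap in 8 of 10 genes in mutants, where 27.2% of tested genes did not, and in 5 of 10 in the wild type, where 15.6% did not. The 5 wild-type genes were Il6, Il11, Il6ra, Osmr and Il11ra1. Il6 is in both counts and Osm in that of mutants, and both genes passed the filter only through injured libraries. Whether the changes differed between genotypes was tested as an interaction. There 0 of 10 genes passed with limma, as did 0 of all 24188 tested genes, and a voom fit also called 0 of 10. Il11 (3.71 ± 1.07, limma adjusted p 0.4879) and Il6ra (0.52 ± 0.18, limma adjusted p 0.5057) had an unadjusted p under 0.05, and 8.18% of tested genes did. The injury response of the family is therefore not shown to differ between genotypes.

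The makeup of the summed ligands differed between intact and injured discs, mainly through Il11. Summed ligand TPM was 25.2 to 32.9 in the 7 intact libraries. It was 32.9, 41.1, 249 and 188 in injured wild-type mice 1 to 4 and 280 to 923 in injured mutants. Clcf1 was the highest ligand in all 7 intact libraries and in injured wild-type mice 1 and 2, and Il11 was the highest in the other 7 injured libraries. Il11 took 4.01% to 14.3% of the ligand sum in intact discs and 53.5% to 87.4% in injured mutants. Summed receptor chains ranged from 347 to 548 TPM over all 16 libraries. The ratio of the ligand sum to the receptor sum was 0.0593 to 0.0756 in intact discs, 0.0731 to 0.566 in injured wild-type discs and 0.806 to 1.98 in injured mutants. For the matched pair, Il11 per Il11ra1 was 0.0377 to 0.139 in intact discs, 0.356 to 7.61 in injured wild-type discs and 7.33 to 46.7 in injured mutants. The other matched pairs within the set remained below 1 in every library, with highest ratios of 0.598 for Il6 per Il6ra, 0.936 for Lif per Lifr and 0.546 for Osm per Osmr. Clcf1 was not paired here, as Cntfr lies outside the set. Cntfr did not pass 1.08 TPM in any library, where Clcf1 was at 21.5 TPM or more, so Il11 is not the only ligand above such a chain. These ratios are of transcripts and not of proteins.

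**Figure D4:**
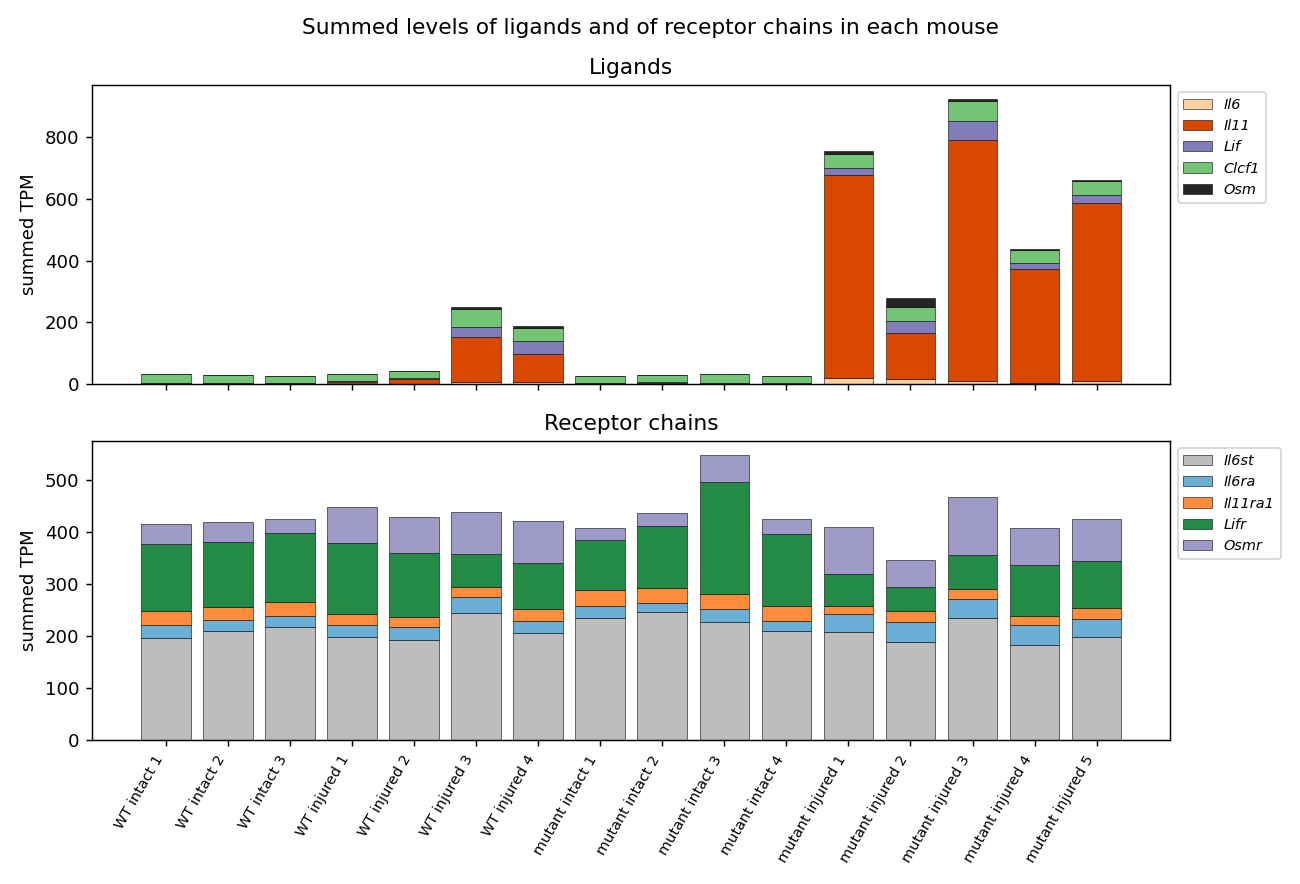
Summed TPM of the 5 ligands (top) and of the 5 receptor chains (bottom) in each of the 16 mice, stacked by gene. Il11 fills 53.5% to 87.4% of the ligand bar in injured mutants, while the receptor bars range from 347 to 548 TPM.

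Genotype was compared within each treatment to ask whether the family differs in mice with the Adam8EQ allele. In intact discs 0 of 10 genes differed with limma, 0 had an unadjusted p under 0.05, and a voom fit also called 0. Of all tested genes 0.0165% were called there and 3.78% had an unadjusted p under 0.05. The groups did not overlap for Lif, lower in mutants, and Il11ra1, higher in mutants, which is 2 of 10 genes against 6.18% of tested genes. The ligand changes there lay between -0.31 and 0.28 and the receptor changes between -0.20 and 0.14 on the log2 scale. In injured discs 1 of 10 genes differed, against 0.918% of tested genes, and 6 of 10 had an unadjusted p under 0.05, against 20.3%. That gene was Il11, higher in mutants by 3.52 ± 0.71 (limma adjusted p 0.03735). Its mean was 66.6 ± 66.7 TPM over the 4 injured wild-type mice and 506 ± 249 TPM over the 5 injured mutants (± SD). The groups barely separated, since the lowest mutant, mouse 2, had 149.4 TPM and the highest wild-type mouse, mouse 3, had 148.7 TPM. The Il11 call was lost under 17 of 29 alternatives, among them a fit on the injured libraries alone (a difference of 3.52, adjusted p 0.231), the replicate block (3.42, 0.0995) and leaving out injured wild-type mouse 2 (3.16, 0.15). Over all 29 the difference lay between 2.79 and 4.17.

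Il6ra was the other gene whose injured groups did not overlap, where 4.77% of tested genes did not. It was higher in injured mutants by 0.51 ± 0.12 (limma adjusted p 0.05381), which missed the threshold and passed it under 5 of 29 alternatives. The other ligands were higher in injured mutants on average without passing the threshold. The differences were 1.87 ± 0.53 for Il6 (limma adjusted p 0.08514), 1.83 ± 0.76 for Lif (0.1951), 1.52 ± 0.68 for Osm (0.2258) and 0.50 ± 0.23 for Clcf1 (0.2375). Without injured wild-type mouse 3, Il6 (2.19, adjusted p 0.0295) and Clcf1 (0.75, adjusted p 0.0339) passed too. Calls over all tested genes then went from 222 to 2253. Il6 passed under 2 of 28 alternatives and Clcf1 under 1 of 29. Injured wild-type mice 3 and 4 lay inside the injured mutant range for Il6, Lif, Osm and Clcf1, and mice 1 and 2 below it. Osmr differed by 0.06 ± 0.23 and Il6st by -0.05 ± 0.09, the latter turning to 0.0567 with median-of-ratios scaling.

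Other genes of the family and its pathway were taken from lists chosen with earlier results of these data known. The counts below therefore describe these lists and are not independent evidence for the pathway. Of 10 further ligands and receptors, 4 reached the level needed for testing, and 1 of them rose with injury in mutants. It was Ebi3, a subunit of interleukin 27, which rose by 1.71 ± 0.55 (limma adjusted p 0.02864), from at most 0.265 TPM in intact to between 0.785 and 9.3 TPM in injured mutants, and kept the call under 21 of 28 alternatives. Ebi3 did not pass 0.871 TPM in any intact library, so it too passed the filter only through injured libraries. Cntf, Il27 and Ctf1 did not pass, with changes of 0.55 ± 0.30, 0.54 ± 0.33 and 0.01 ± 0.27. Cntfr, a receptor chain for Cntf and for Clcf1, stayed at or under 1.08 TPM in all libraries and was not tested.

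Downstream of gp130, 3 of 11 signal transducers rose and 1 fell with injury in mutants. Of all tested genes 30.8% were called there, 13.1% higher and 17.7% lower, so the share of signal transducers called was near that of all genes. Stat3, the main transcription factor of the pathway, rose by 0.78 ± 0.14 (limma adjusted p 0.001655). Its mean was 71.9 ± 10 TPM in intact and 126 ± 24.2 TPM in injured mutants (± SD). The kinases Jak2 and Jak1 rose by 0.47 ± 0.14 and 0.41 ± 0.15, and Jak1 kept its call under 12 of 29 alternatives. Gab1, an adaptor towards MAP kinase signalling, fell by 0.63 ± 0.13. Of 9 feedback genes, 5 rose and 2 fell, against the same 13.1% and 17.7%. Socs3, the inhibitor that binds gp130, rose by 2.95 ± 0.58 (limma adjusted p 0.002583), from 31.8 ± 12.2 to 254 ± 97.8 TPM (mean ± SD). Ptpn2 rose by 1.41 ± 0.22, Ptpn6, a phosphatase typical of blood cells, rose by 2.75 ± 0.60 beside the leukocyte markers, and Pias1 fell by 0.50 ± 0.10.

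Of 19 tested genes known as targets of the pathway, 14 rose and 1 fell in mutants, with a median change of 2.32 against -0.08 for all tested genes, of which 13.1% rose and 17.7% fell. Those with the smallest adjusted p were Bcl3, a transcriptional regulator (4.08 ± 0.37), Lcn2, an iron-binding acute-phase protein (4.42 ± 0.44), Cebpd, a transcription factor of the acute-phase response (2.38 ± 0.24), and Timp1, a metalloproteinase inhibitor (4.24 ± 0.43). The same 4 were the targets called in the wild type, where 0.116% of all tested genes were called, at 2.78 ± 0.42, 3.89 ± 0.50, 1.54 ± 0.27 and 3.33 ± 0.49. These wild-type calls held under 19, 24, 10 and 19 of 27 alternatives. Many of these genes also respond to other cytokines. Both sheddases that release soluble receptor chains rose in mutants, Adam17 by 1.06 ± 0.20 and Adam10 by 0.50 ± 0.14. Of 6 tested inducers of the ligands, Tnf (2.84 ± 0.68) and Il1b (3.30 ± 0.98) rose and Tgfb3 fell by 1.09 ± 0.17, while Tgfb1 changed by 0.32 ± 0.24 without passing. Between genotypes, 0 of the 51 tested genes of these lists passed with limma in intact discs (2 with an unadjusted p under 0.05, 0 with voom), 0 in injured discs (19 unadjusted, and with voom 1, Cebpd) and 0 in the interaction (6 unadjusted, 0 with voom). The unadjusted shares over all tested genes were 3.78%, 20.3% and 8.18%.

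To describe which genes followed the ligands from mouse to mouse, levels were correlated on the log2(TPM + 1) scale over the 9 injured libraries. These points share the low values of injured wild-type mice 1 and 2. The closest genes were picked as the highest correlations among tested genes, leaving out Gm, Rik, Mir, mitochondrial and identifier-like symbols. For Osm the closest genes were Adam8 (r = 0.992), Cd14 (r = 0.991) and Fcgr1 (r = 0.985), the last pair being myeloid receptors. For Lif they were Fosl1, an AP-1 subunit (r = 0.985), the chemokine Cxcl1 (r = 0.979) and Serp2 (r = 0.978). Those for Il11 were Lnx2, Man2a1 and Medag (r = 0.989, 0.985 and 0.982), for Il6 Lats2, Cdkn1a and Zc3hav1 (r = 0.969, 0.962 and 0.957), and for Clcf1 Spry2, Psmd1 and Rps6ka4 (r = 0.982, 0.981 and 0.980). Within the family, Lif and Clcf1 were the closest pair (r = 0.954), while Il11 and Osm were the least alike ligands (r = 0.617). Osm and Lifr ran opposite ways (r = -0.900), and Osmr followed Osm hardly at all (r = -0.113).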

How the data were processed

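The deposited values are TPM as the authors computed them, in a single table with a column per mouse and Ensembl identifiers paired with gene names, each column summing to 1000000 over 49315 genes. Per the labels' protocols, ribosomal RNA was depleted before library preparation, although the molecule field reads polyA RNA. The submitters' processing notes name bcl2fastq 2.20 and GRCm38; neither an aligner nor a counting tool, strand setting or annotation is named, so these are not given in the sources used here. Groups came from the titles, since the genotype field of wild-type mice is cut short. Library names begin with A8 or M in mutants and with D in every wild-type mouse, so the naming cannot be told apart from genotype.

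Genes that reached 1 TPM in 3 or more libraries were fitted with limma 3.58.1 in R 4.3.3 (lmFit, eBayes with trend) on log2(TPM + 1), which understates changes of low genes. All 16 libraries entered 1 fit, and p-values were adjusted over 24188 genes. Errors are moderated standard errors. The p-values measure the spread between these mice, whose litters or cages the labels do not give. In simulated data for injury in mutants (23435 genes), 93% of genes changed by 2 and 74% of those changed by 1 on the log2 scale were recovered, with 7 false calls. Noise was drawn from a normal distribution with the same spread in every group of a gene. The rates therefore do not cover genes that spread more in injured than in intact mice. The changed genes were few and lay above a floor of mean level. Il6 and Osm lie below that floor, so these rates do not cover them. Recovery of changes in the wild type was not simulated. Dividing TPM by the value of 1 read, from GENCODE M21 exon lengths on GRCm38 (99.5% of identifiers found), put 94.1% to 94.9% of values under 20 reads within 0.05 of a whole number. The read numbers are therefore estimates, and those of Il11 and Il11ra1 are only approximate. No pair of libraries was identical.

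All 10 genes were named whatever their result. From each pathway list the 4 genes with the smallest adjusted p for injury in mutants were named, and every tested gene of the list of further family members. A gene removed from that list and from its counts is not reported here. For each of the 10 genes the 3 most correlated genes among those with other symbols than Gm, Rik, Mir, mitochondrial or identifier-like ones could be named. The genes and lists were chosen with earlier results of these data known. The alternatives were another pseudocount (0.1), other filters and scalings, limma without the trend or with sample weights, smaller fits, a replicate block, the library names and leaving out each mouse. A voom fit on the estimated reads was added after seeing the data.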

Additional observations from a re-analysis of the deposited data

Results flagged for a closer look

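Among 30 combinations of a gene and a group of 4 or 5 mice, 5 had a library far from the others. For normally distributed values chance alone gives about 1 in 20. That rate does not hold for Osm in intact mutants, where 3 libraries at 0 fixed the outcome. Injured mutant mouse 3 had the highest Clcf1 of its group, 65.3 TPM, and intact mutant mouse 3 the highest Clcf1, 29.2 TPM, and the highest Osm, 0.52 TPM, which is 4 reads. Il6ra in injured wild-type mouse 3 was at 30.5 TPM above 3 mice near 24 TPM. Il11ra1 in injured mutant mouse 1, the deepest library, was at 14.1 TPM under 4 mice between 19 and 20.4 TPM.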

How the results depend on the processing

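The number of the 10 genes called for injury in mutants, 9, was 8 or 9 when any 1 mouse was left out. With a mean of at least 5 TPM it was 7, since Il6 and Osm did not pass that filter. In fits with fewer mice it was 4 with the mutant libraries named M alone and 6 with those named A8 alone. For injury in the wild type it was 0, and 0 to 1 without 1 mouse. Between genotypes in injured discs it was 1, and 0 to 4 without 1 mouse. It was 2 with a mean of at least 5 TPM, median-of-ratios scaling, sample weights or voom, and 0 without a filter, with only the groups compared, with the replicate block, and with the mutants named M or A8 alone; the cause was not tested.

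Same-numbered mice are different animals, and their deviations from the group means had a median correlation of -0.03 over 21 pairs, so the mouse numbers do not pair them. With the replicate block the counts of the 10 genes were 0 and 9 for injury in wild type and mutants, 0 for genotype in intact and in injured discs, and 0 for the interaction.

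Over all genes, calls for injury in the wild type (28) ranged from 2 to 452 without 1 mouse, those between injured genotypes (222) from 7 to 2253, and those for injury in mutants (7438) fell to 725 with the libraries named M.

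Signs turned only where the change was near 0. In intact discs between genotypes, Il11 was 0.0284, Clcf1 -0.0657 and Lifr -0.26 with the mutants named A8, and Osm was 0.0234, Il6ra 0.0661 and Osmr 0.128 with those named M. Clcf1 was -0.0449 with sample weights and Il6ra 0.000191 with the replicate block. Without 1 mouse, Clcf1 ranged from -0.0839 to 0.0725, Osm from -0.279 to 0.0506, Il6ra from -0.0929 to 0.0998 and Lifr from -0.139 to 0.245. Between injured genotypes, Osmr was -0.123 with A8 and -0.0586 to 0.207 without 1 mouse, and Il6st was 0.0567 with median-of-ratios scaling, 0.0552 with voom and -0.108 to 0.0204 without 1 mouse. For injury in the wild type, Il6st was -0.0032 with median-of-ratios scaling, -0.00726 with sample weights, -0.00379 with voom and -0.0678 to 0.0442 without 1 mouse. Ctf1 in mutants was -0.117 with sample weights, -0.226 with M and -0.138 to 0.134 without 1 mouse. Depth limits Il6 and Osm in intact discs, which rest on 0 to 6 reads a library.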
